A study of Homo sapiens with 3 samples.

Results

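The captured region of 2q35 runs on chromosome 2 from 217609776 to 218362744 (GRCh37), a length of 752.969 kb cut by the enzyme HindIII into 227 captured fragments. Every pair of these fragments was taken, which gives 25651 pairs of the 105742 pairs in the 6 captured regions, with no choice by count. The values are counts of ligated read pairs between 2 captured fragments, called contacts here. The study asked which sequences contact breast cancer risk regions, and counted contacts in BT483 (from a primary invasive ductal carcinoma), SUM44 (labelled as a breast cancer line from a pleural effusion) and GM06990 (a lymphoblastoid line from B lymphocytes), with 2 replicates per line. All 3 lines were fixed in 2% formaldehyde for 5 min. BT483 was lysed with trypsin and grown with insulin, SUM44 was lysed with a dounce and grown in medium without phenol red and with 1 nM estradiol, and GM06990 was lysed with a dounce. Line and medium cannot be told apart in any comparison below, and neither can lysis in those with BT483.

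As background, Hi-C joins fragment ends that are near each other in the fixed nucleus, and capture then enriches the ligated ends of a chosen region. Contacts fall with distance along the chromosome. A stretch that few contacts cross is said to insulate its 2 sides, and single pairs far above the distance trend are usually called loops. The 2q35 risk region is poor in genes. In the RefSeq order of genes, IGFBP2 and IGFBP5, which encode proteins that bind insulin-like growth factors, lie on its centromeric side, followed by TNP1, which encodes a protein of sperm chromatin, the long non-coding gene DIRC3, and TNS1, which encodes a protein of cell adhesions. No fragment was assigned to a gene, because the annotation used here is on another genome build.

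BT483 replicate 1 stood apart from the other 5 libraries before any comparison was made. The totals inside the region were 103882 and 180622 contacts for BT483, 136079 and 137446 for GM06990, and 825023 and 771935 for SUM44. Pairs under 10 kb apart held 68.0% of the contacts in BT483 replicate 1 and 23.9% in replicate 2. Their share was 15.0% and 33.4% for GM06990, and 14.9% and 15.4% for SUM44. Pairs of adjacent fragments alone held 27.8% in BT483 replicate 1 and between 3.43% and 13.7% in the other libraries. The share of pairs with a count of 0 was 46.0% in BT483 replicate 1 and between 1.54% and 16.8% in the others, and 131 pairs had no count in any library. Replicates were compared over pairs more than 20 kb apart with a summed count of at least 20. These numbered 722 in BT483, 1564 in GM06990 and 19234 in SUM44, so the lines rest on unlike sets of pairs. The chi-square per pair, which is 1 for sampling noise alone, came to 2.96 for BT483, 1.22 for GM06990 and 1.67 for SUM44. Over these pairs all replicates therefore differed by more than sampling noise, and none was counted as a repeat of another. Results are given with and without BT483 replicate 1 where it moves them. In the deposited within-region table of SUM44 the trans counts of the fragments summed to 1.93 and 1.92 times those in its table of contacts outside the region, against 1 in the other lines, so only shapes within a replicate were compared. Nothing says that the replicates were separate cultures, so p-values measure the spread between these libraries, which may be technical. Read pairs carried no molecular identifiers, so intervals cover counting error only.

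The captured fragments did not contribute equally. With equal contributions each fragment would hold 0.441% of the contact ends. The fragment at 218250629 to 218252882, 641 kb from the centromeric edge, held the most on average: 0.555% and 1.44% in BT483, 0.887% and 0.967% in GM06990, and 1.38% and 1.43% in SUM44. It was thus above the equal share in every library, and lower in BT483 replicate 1 than in the other 5. The next were the fragments at 218012663 to 218015576 (mean 0.913%) and at 218252928 to 218253864 (mean 0.913%). The lowest means, 0.0592%, 0.0651% and 0.0886%, belonged to fragments of only 21, 15 and 56 bp. Over all 227 fragments length and mean share were nearly unrelated (Spearman's rho = 0.0643, a description across fragments of the same libraries). Fragment lengths ranged from 15 to 32184 bp with a median of 1991 bp.

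Contacts fell with distance in all 6 libraries, but slowly, and not over the whole region. The decay slope is that of log10 contacts per pair on log10 distance over 12 bins from 10 to 600 kb. Its 2 values per line were -0.901 and -0.509 for BT483, -0.495 and -0.575 for GM06990, and -0.552 and -0.566 for SUM44. Apart from BT483 replicate 1, the 5 libraries lay within a narrow band in which the lines overlapped. The line means were -0.705 ± 0.278 in BT483, -0.535 ± 0.0570 in GM06990 and -0.559 ± 0.0103 in SUM44 (SD, n = 2), and without replicate 1 BT483 was -0.509. Slopes of the same kind inside the other 5 regions were -0.624 to -0.673 in GM06990, steeper than both its replicates at 2q35. In SUM44 they were -0.498 to -0.636, so 2q35 lay within their range. In a region without pairs as far apart as 600 kb the fit ended at the longest pair, so the distances fitted were not all equal. The slopes were not tested, since 2 replicates against 2 cannot give an exact permutation p below 0.333.

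The fall ended at about 400 to 500 kb. Relative to the mean over all pairs, contacts per pair between 20 and 40 kb were 1.98 and 2.02 in SUM44, 1.80 and 1.49 in GM06990, and 0.852 and 1.52 in BT483. Between 400 and 500 kb they were 0.451 and 0.441 in SUM44, 0.487 and 0.358 in GM06990, and 0.101 and 0.450 in BT483. From 600 to 753 kb they were no lower: 0.512 and 0.497 in SUM44, 0.533 and 0.377 in GM06990, and 0.118 and 0.469 in BT483. All 6 libraries were higher at 600 to 753 kb, over 832 pairs that join the 2 ends of the region, than at 400 to 500 kb, over 2565 pairs. This last rise was not tested.

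After scaling each replicate to its own total, no distance bin passed the test. The edgeR quasi-likelihood test called 0 of the 12 bins of 2q35 in each of the 3 comparisons, and 0.0% of the 70 bins of all regions in each comparison and direction. At an unadjusted p under 0.05 edgeR gave 0 bins in every comparison. DESeq2 called 0 bins, with 2, 2 and 0 at an unadjusted p under 0.05 for BT483 over GM06990, BT483 over SUM44 and SUM44 over GM06990. DESeq2 also applied its own size factors to the bins, so it tested another scaling and was not a repeat. The median log2 change of BT483 over GM06990 was 0.09 with DESeq2 and -0.56 with edgeR. A fit of 2q35 alone, added after the data had been seen, called 2 of the 12 bins lower in BT483 than in SUM44 and none in the other comparisons. The widest gap between line means was in the bin from 55.07 to 77.46 kb, where BT483 was lower than SUM44 by a log2 of -0.85 (adjusted p = 0.371, SE 0.59). That gap came from replicate 1, which stood at 0.375 of the mean against 1.02 in replicate 2 and 1.26 in both SUM44 replicates. With BT483 replicate 2 left out, the median log2 change of BT483 over the 12 bins was -1.47 against GM06990 and -1.67 against SUM44. Over the 70 bins of all regions it was -1.57 and -1.78, so the low values of replicate 1 were not particular to 2q35. With replicate 1 left out, the medians at 2q35 were -0.007 and -0.175. The plot of contacts per pair against distance shows the same split.

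**Figure D1:**
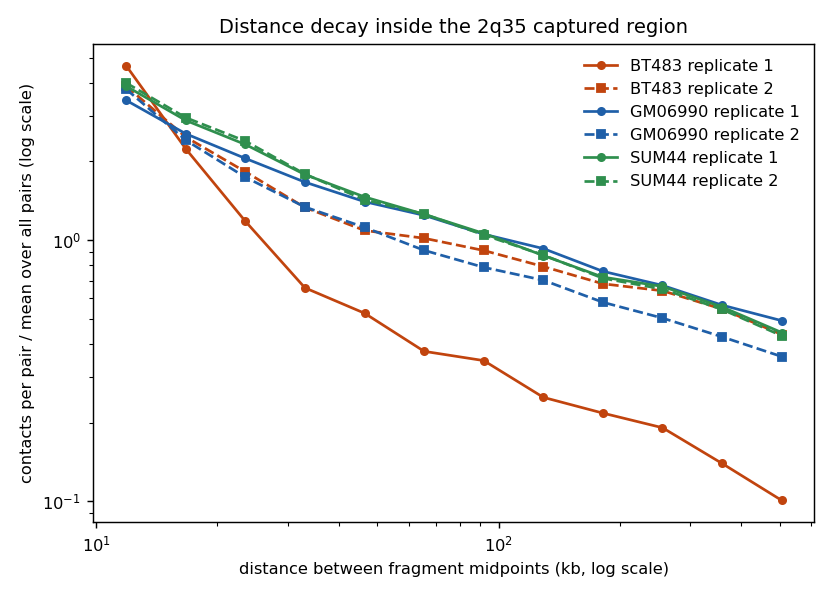
Contacts per pair relative to the mean over all pairs of 2q35 (log axis) against the distance between fragments in kb (log axis), 1 line per replicate. BT483 replicate 1 lies below the other 5 libraries beyond 20 kb and reaches 0.101 in the last bin, where the others are between 0.358 and 0.492.

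To look past distance, an expected count was fitted for each pair and replicate from its distance and the trans counts of both fragments. Observed and expected counts were each summed over pairs of 25 kb windows, and the observed sum was divided by the expected sum. Windows are named by the distance of their start from the centromeric edge, so that the 0 kb window starts at 217609776 and the 300 kb window at 217909776. The last window, at 750 kb, holds only 1 fragment. A ratio of 1 is the distance background of that replicate. Over the 307 window pairs with enough expected contacts in all libraries and at least 50 kb between their starts, the log2 ratios of replicates correlated with Pearson's r = 0.96 in SUM44, 0.83 in GM06990 and 0.63 in BT483. These correlations run across window pairs that share fragments and are descriptions. Between BT483 replicate 2 and the SUM44 replicates r was 0.81 and 0.80, and between it and the GM06990 replicates 0.44 and 0.36.

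Most of the region lay close to its distance background. With replicates summed, the ratio ran from 0.494 to 1.91 in BT483 with a median of 0.949, from 0.441 to 2.22 in GM06990 with a median of 0.967, and from 0.457 to 1.80 in SUM44 with a median of 0.969. Ratios over 1.5 were found for 13 of 307 window pairs in BT483, 9 in GM06990 and 5 in SUM44. Windows at 375 kb (217984776 to 218009775) and 575 kb (218184776 to 218209775) were low on average. The ratio of the 375 kb window, from counts summed over its 30 partners, was 0.716 and 0.739 in BT483, 0.691 and 0.663 in GM06990, and 0.722 and 0.682 in SUM44. That of the 575 kb window was 0.951 and 0.698 in BT483, 0.633 and 0.609 in GM06990, and 0.674 in both SUM44 replicates, and BT483 replicate 1 alone was near 1. The 375 kb window holds 8 captured fragments and the 575 kb window 2.

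In the breast lines the strongest window pairs joined a small number of places far apart. In BT483 the highest ratio was between the windows at 300 and 625 kb (218234776 to 218259775), at 1.93 and 1.91 in the replicates, on 101 and 709 contacts. The neighbouring pair of 300 and 600 kb had 1.89 and 1.90. In SUM44 the highest ratio was between the windows at 0 and 400 kb (218009776 to 218034775), at 1.78 and 1.82, on 2183 and 1950 contacts. Both are far pairs, 325 and 400 kb apart.

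The windows at 0, 300, 400 and 600 kb were all above background with each other in both breast lines. The pair of 0 and 300 kb had 1.98 and 1.57 in BT483 and 1.60 and 1.55 in SUM44. The pair of 0 and 600 kb had 1.68 and 1.70 in BT483 and 1.44 and 1.40 in SUM44. The pair of 300 and 400 kb had 1.98 and 1.59 in BT483 and 1.41 and 1.42 in SUM44. These 4 windows were picked out after their values had been seen, and their pattern is a description. The pair of 400 and 600 kb had 1.56 and 1.68 in BT483 and 1.50 and 1.49 in SUM44. In GM06990 the pairs with the 400 kb window were raised too, with 1.31 and 1.42 for 0 kb, 1.32 and 1.43 for 300 kb, and 1.43 and 1.33 for 600 kb. Its pairs without the 400 kb window were near background: 1.05 and 1.05 for 0 and 300 kb, 0.971 and 0.954 for 0 and 600 kb, and 1.10 and 1.23 for 300 and 600 kb.

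In GM06990 the 2 strongest window pairs lay elsewhere, in the telomeric part of the region. The windows at 475 kb (218084776 to 218109775) and 650 kb (218259776 to 218284775) had a ratio of 2.03 and 2.48, on 227 and 204 contacts. The windows at 475 and 675 kb (218284776 to 218309775) had 1.91 and 2.36, on 501 and 451 contacts. For 475 and 650 kb BT483 had 0.804 and 1.15 and SUM44 had 1.16 and 1.12, so that no breast replicate was above 1.16, as the maps of observed over expected contacts show. The 400 kb window took part in the next strongest, with 1.68 and 1.82 to the 650 kb window, and in the fifth, with 1.52 and 1.74 to the 475 kb window.

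**Figure D2:**
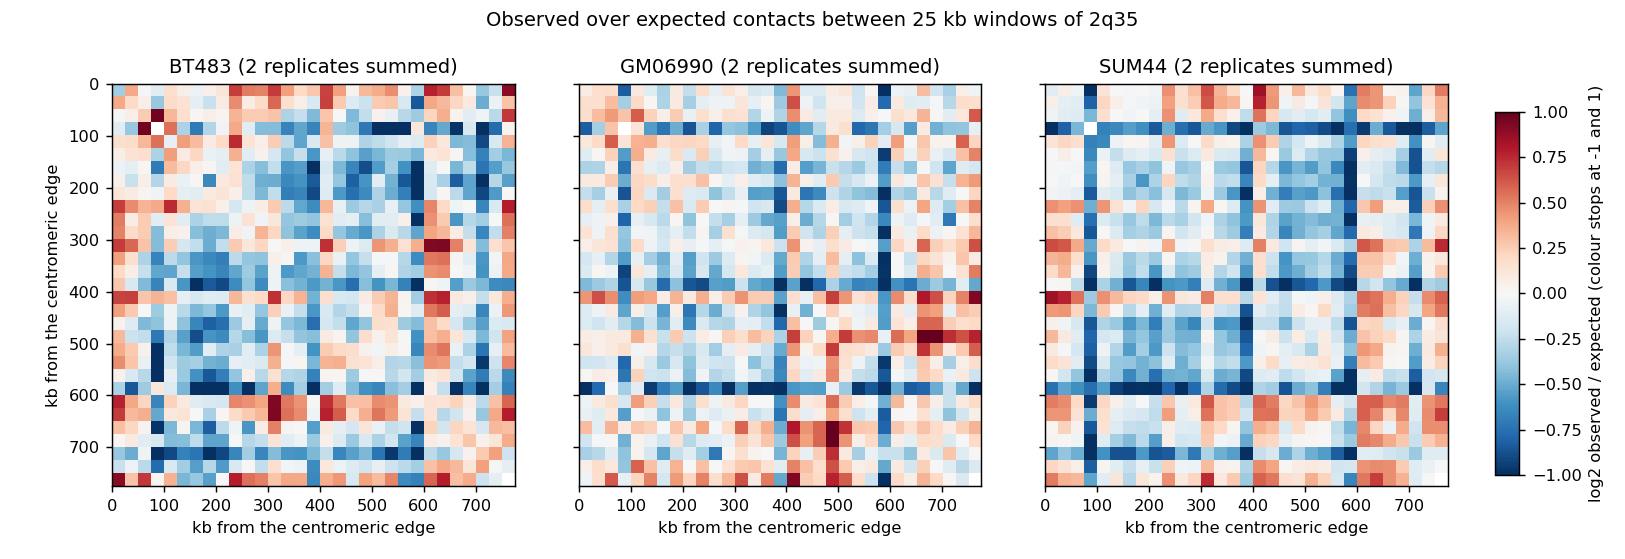
Log2 of observed over expected contacts between windows of 25 kb, with both replicates of a line summed; both axes give the distance from the centromeric edge in kb. The dark red patch near 475 and 650 to 700 kb is seen in GM06990, where the summed ratio of 475 and 650 kb is 2.22, against 1.09 in BT483 and 1.14 in SUM44.

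The lines were then compared window pair by window pair, with the expected count of each replicate as offset, in 1 edgeR quasi-likelihood fit over the 1791 window pairs of all 6 regions, of which 489 were at 2q35. For BT483 over GM06990, 20 window pairs of 2q35 were higher and 37 lower at an adjusted p under 0.05. Over all regions 6.98% were called higher and 5.75% lower. For SUM44 over GM06990, 21 were higher and 35 lower, where 6.14% and 5.53% were called over all regions. In either direction that is 11.7% of the window pairs of 2q35 for BT483, against 12.7% over all regions, and 11.5% for SUM44, against 11.7%, so 2q35 stood near the background in how much differed. Both comparisons use the same GM06990 libraries. For BT483 over SUM44, edgeR called 0 of 489, with 0.0% over all regions in each direction, 92 at an unadjusted p under 0.05 and 1 by DESeq2.

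The called changes were moderate in size. Those higher in BT483 ran from a log2 change of 0.40 to 0.85 with a median of 0.65, and those lower from -0.39 to -1.29 with a median of -0.65. In SUM44 the higher ones ran from 0.39 to 0.66 (median 0.50) and the lower ones from -0.38 to -1.08 (median -0.69). Over all 489 window pairs the median log2 change was -0.03 for BT483 over GM06990 and -0.08 for SUM44 over GM06990. In all 57 and 56 called window pairs the replicates of the 2 lines did not overlap. The test used the same replicates, so this largely follows from the calls and is no separate support. The share among all window pairs tested was not counted.

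Contacts of the windows at 0, 300, 600 and 625 kb made up most of what was higher in the breast lines. Of the window pairs called higher, 16 of 20 in BT483 and 17 of 21 in SUM44 touched at least 1 of these windows, as did 118 of the 489 tested. In SUM44 the windows at 25 and 325 kb, outside the set, were touched by 4 each, as many as those at 300 and 600 kb. The set of 0, 300, 600 and 625 kb was chosen after the values had been seen, and the counts are a description. Summed over its 30 partners, the 625 kb window had 0.790 and 1.32 in BT483 and 0.972 and 0.941 in GM06990. In SUM44 it had 1.27 and 1.25. The 0 kb window had, in the same order, 1.37, 1.23, 0.993, 1.02, 1.12 and 1.16. The 300 kb window had 1.14, 1.17, 1.02, 1.07, 1.10 and 1.12, and the 600 kb window 0.903, 1.31, 1.07, 1.04, 1.27 and 1.26. Whether the pair changes belong to single partners or to whole windows was not tested. The change ranked first in BT483 was that of the windows at 300 and 625 kb. Its ratio was 1.93 and 1.91 in BT483, 0.975 and 1.15 in GM06990, and 1.45 and 1.46 in SUM44. BT483 was highest, SUM44 lay between, and no replicate of one line reached those of another. The log2 change over GM06990 was 0.85 in BT483 (adjusted p = 0.00262, SE 0.13) and 0.46 in SUM44 (adjusted p = 0.0255, SE 0.11). The difference between the breast lines did not pass the test (log2 0.40, adjusted p = 0.227, SE 0.11).

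The pair of 0 and 600 kb (218209776 to 218234775) was higher in both breast lines too. Its ratio was 1.68 and 1.70 in BT483, 0.971 and 0.954 in GM06990, and 1.44 and 1.40 in SUM44. Again the lines did not overlap, with GM06990 just below its background. The log2 change was 0.82 in BT483 (adjusted p = 0.00262, SE 0.12) and 0.56 in SUM44 (adjusted p = 0.00639, SE 0.11). The pair of 0 and 625 kb had 1.33 and 1.66 in BT483 and 1.29 and 1.42 in SUM44, against 1.01 and 0.859 in GM06990. The pair of 300 and 600 kb had a log2 change of 0.71 in BT483 (adjusted p = 0.00618, SE 0.12) and 0.41 in SUM44 (adjusted p = 0.0379, SE 0.11), and the pair of 0 and 300 kb one of 0.68 (adjusted p = 0.0138, SE 0.14) and 0.58 (adjusted p = 0.0119, SE 0.12).

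The 625 kb window was also raised towards the telomeric end. With the window at 725 kb its ratio was 1.36 and 1.40 in SUM44 and 0.908 and 0.848 in GM06990, a log2 change of 0.66 (adjusted p = 0.00999, SE 0.13). BT483 gave 0.981 and 1.37 there, and its change of 0.47 did not pass (adjusted p = 0.0561, SE 0.14). With the window at 425 kb, SUM44 gave 1.50 and 1.42 and GM06990 0.973 and 0.894 (log2 0.64, adjusted p = 0.0311, SE 0.17), and BT483 split into 0.974 and 1.62. In both of these pairs BT483 replicate 1 was at its background, like GM06990, and replicate 2 was as high as SUM44. With the single fragment of the 750 kb window all 4 breast libraries were high, at 2.00 and 1.67 in BT483 and 1.55 and 1.68 in SUM44, against 0.959 and 1.15 in GM06990. With the window at 675 kb, SUM44 was higher (1.43 and 1.36 against 0.950 and 0.915, log2 0.58, adjusted p = 0.0171, SE 0.13). BT483 was not, at 0.785 and 1.09 (log2 0.04, adjusted p = 0.885, SE 0.14).

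Within these windows the difference was spread over the fragments. All 6 fragments of the 300 kb window had a higher ratio to the windows at 600 and 625 kb in both breast lines than in GM06990. The ratio ran from 1.68 to 2.09 in BT483, from 1.39 to 1.69 in SUM44 and from 0.635 to 1.51 in GM06990. On the other side, 25 of 26 fragments were higher in BT483 and 22 of 26 in SUM44. The fragment at 218250629 to 218252882 was among the strongest, with 162 contacts to the 300 kb window in BT483 (3.16 times expected), 870 in SUM44 (2.36 times) and 77 in GM06990 (1.43 times). The fragments of 1 window share partners and libraries and are not independent. These windows were chosen for their difference between lines, so the counts of fragments describe it and give no separate support.

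Contacts of the windows at 475, 650, 675 and 700 kb made up most of what was lower in the breast lines. Of the window pairs called lower, 26 of 37 in BT483 and 26 of 35 in SUM44 touched the 475 kb window or 1 of the other 3, as did 117 of the 489 tested, and none of those higher in BT483 did (2 of 21 in SUM44). The 475 kb window itself was touched by 12 of the 37 and 12 of the 35, and at least 1 of the windows at 650, 675 and 700 kb by 17 of each. In SUM44 windows outside the set were touched as well, that at 400 kb by 6 and those at 450 and 500 kb by 5 each. Those at 650 and 675 kb were touched by 4 each there and that at 700 kb by 9. This set, too, was chosen after the values had been seen. The pair of 475 and 675 kb had 1.91 and 2.36 in GM06990, 0.655 and 0.945 in BT483, and 1.05 and 0.984 in SUM44. GM06990 was far above its background there, and every breast replicate was near or below its own. The log2 change was -1.29 in BT483 (adjusted p = 0.00120, SE 0.17) and -1.06 in SUM44 (adjusted p = 0.000839, SE 0.14).

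The neighbouring pairs fell with it. That of 475 and 650 kb had a log2 change of -1.07 in BT483 (adjusted p = 0.00501, SE 0.17) and -0.98 in SUM44 (adjusted p = 0.00138, SE 0.13). The pair of 475 and 700 kb had a ratio of 1.30 and 2.16 in GM06990, 0.608 and 0.758 in BT483, and 0.879 and 0.729 in SUM44. The replicates of GM06990 were far apart here, yet both stood above all 4 breast replicates. Its log2 change was -1.23 in BT483 (adjusted p = 0.0192, SE 0.28) and -1.08 in SUM44 (adjusted p = 0.00739, SE 0.21). The pair of 450 and 675 kb fell in both lines, by -0.99 in BT483 (adjusted p = 0.00290, SE 0.15) and -0.67 in SUM44 (adjusted p = 0.00505, SE 0.12). The pair of 500 and 675 kb fell in BT483 (log2 -0.83, adjusted p = 0.0127, SE 0.17), and in SUM44 its change of -0.44 did not pass (adjusted p = 0.0736, SE 0.14).

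Close by, the neighbouring windows at 475 and 500 kb had 1.61 and 1.64 in GM06990 and 0.934 and 0.865 in SUM44. Their change was -0.86 in SUM44 (adjusted p = 0.00249, SE 0.13) and -0.60 in BT483 (adjusted p = 0.0235, SE 0.14), where the replicates had 1.26 and 0.923. Contacts inside the 100 kb window (217709776 to 217734775), between 3 pairs of fragments, were lower in SUM44, at 0.625 and 0.653 against 0.991 and 1.41 (log2 -0.95, adjusted p = 0.0225, SE 0.23). This last difference lies away from the others and concerns short distances, and pairs under 10 kb held 33.4% of the contacts of GM06990 replicate 2 and 15.0% of those of replicate 1.

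By fragment, 6 of the 7 fragments of the 475 kb window had a lower ratio to the windows at 650 to 700 kb in both breast lines than in GM06990, and so had all 18 fragments on the other side. These windows, too, were chosen for their difference, so the counts are a description. The fragment at 218083664 to 218087853 had 492 contacts there in GM06990, 3.35 times expected, against 160 in BT483 (1.22 times) and 1312 in SUM44 (1.40 times). The fragment at 218093430 to 218094467 was highest in GM06990, at 5.10 and 5.24 times expected, with 2.32 and 2.04 in SUM44. In BT483 it was at 2.41 in replicate 2 and, on only 3 contacts, at 0.843 in replicate 1. It holds few contacts in all, 0.205% of the contact ends on average. The seventh fragment, at 218096669 to 218110682, did not follow, with 0.614 in GM06990, 0.577 in BT483 and 0.630 in SUM44.

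**Figure D3:**
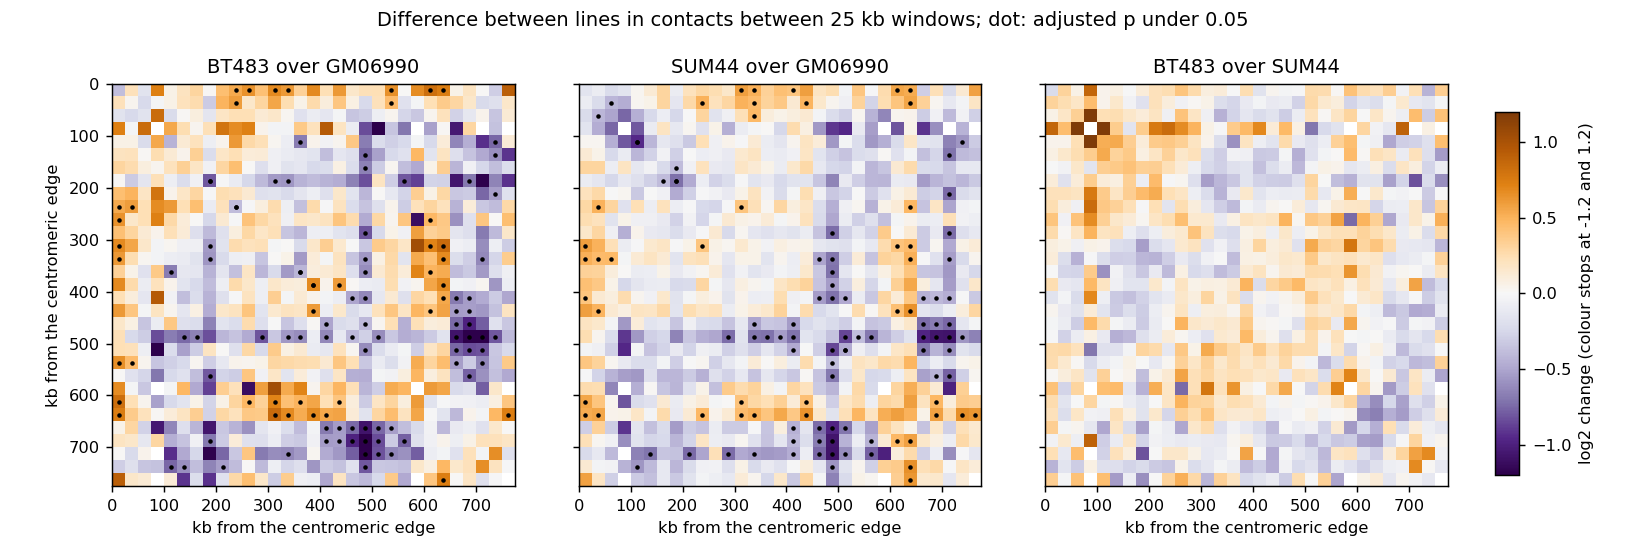
Log2 change of contacts between windows of 25 kb for the 3 comparisons of lines, with axes in kb from the centromeric edge; a dot marks an adjusted p under 0.05, and white cells were not tested. Orange cells with dots lie along the windows at 0, 300 and 600 to 625 kb, purple ones around 475 and 650 to 700 kb, and BT483 over SUM44 has none.

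**Figure D4:**
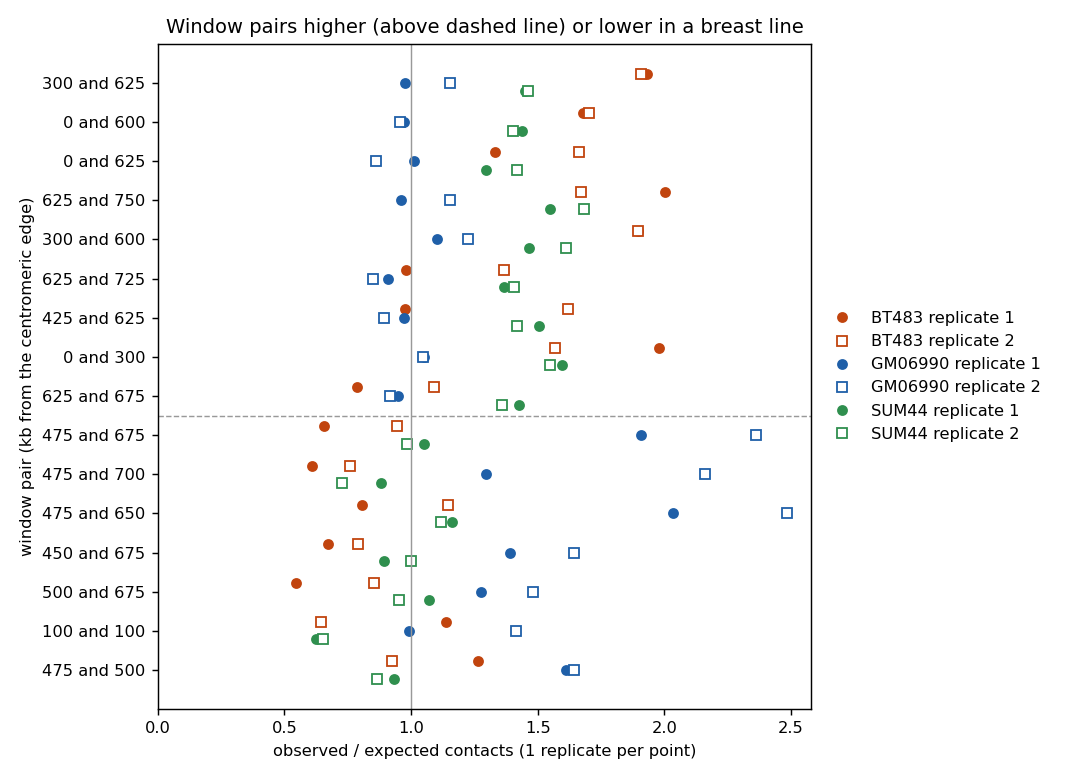
Observed over expected contacts of the 16 named window pairs in each replicate; the axis at the left gives the start of both windows in kb from the centromeric edge, filled circles are replicate 1 and open squares replicate 2. GM06990 lies at 1.30 to 2.48 in the pairs of the 475 kb window with 650, 675 and 700 kb, and every breast replicate lies at or below 1.16.

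No named change turned direction in any setting, but these were chosen as the largest changes with replicates that did not overlap. Their direction with 1 replicate left out largely follows from that choice and gives no separate support. Their size did move, and the log2 change of 0 and 625 kb in BT483 ranged from 0.07 to 0.88 over the settings. How many window pairs were called depended on single libraries. For BT483 over GM06990 the count was 103 without BT483 replicate 1 and 75 without replicate 2, where the 44 higher outnumbered the 31 lower. It was 28 and 8 without GM06990 replicate 1 or 2, and 20 without either SUM44 replicate. For SUM44 over GM06990 it was 117 and 111 without BT483 replicate 1 or 2, 31 and 8 without GM06990 replicate 1 or 2, and 5 and 6 without SUM44 replicate 1 or 2. For BT483 over SUM44 it was 64 without BT483 replicate 2. Scaling to the total inside the region, with no distance background, gave 0 calls in all comparisons, with 13, 0 and 23 at an unadjusted p under 0.05 for BT483 over GM06990, SUM44 over GM06990 and BT483 over SUM44. It moved the median log2 change of BT483 over GM06990 to -0.57. Scaling to the total of pairs over 20 kb, a setting added after the data had been seen, gave 2 higher and 8 lower for BT483 and 5 higher and 15 lower for SUM44. With fragment factors fitted inside the region in place of trans counts, also added later, the split was 11 higher and 14 lower for BT483 and 5 higher and 13 lower for SUM44.

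Insulation was read from the contacts that cross a HindIII boundary between fragments within 100 kb on each side, as log2 of observed over expected, at 200 boundaries. A minimum is a boundary that few contacts cross. Along the region the profiles were shallow. They ran from -0.31 to 0.40 and from -0.35 to 0.36 in the SUM44 replicates, from -0.27 to 0.20 and from -0.28 to 0.24 for GM06990, and from -0.38 to 0.33 in BT483 replicate 2. BT483 replicate 1 was wider, from -1.10 to 0.61. The profiles of replicates correlated with r = 0.99 in SUM44, 0.93 in GM06990 and -0.02 in BT483, over 200 boundaries that share most of their pairs. BT483 replicate 2 correlated with the SUM44 replicates at 0.82 and 0.80 and with the GM06990 replicates at 0.70 and 0.70, so replicate 1 was the one apart.

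A minimum needed a prominence (the smaller rise of the profile on its 2 sides) of at least 0.3. At that cut the minima of the 3 lines lay at different boundaries. GM06990 had 1 minimum, at 217909929 (300 kb from the edge), at -0.27 and -0.25. BT483 replicate 2, at -0.28, and both SUM44 replicates, at -0.24, were about as low there, and BT483 replicate 1 was less so, at -0.12. Neither comparison passed the test there, with a log2 change of 0.06 in BT483 (adjusted p = 0.566, SE 0.06) and 0.02 in SUM44 (adjusted p = 0.845, SE 0.06). With fragment factors fitted inside the region, or a reach of 150 kb, GM06990 had no minimum. With a prominence of 0.15, SUM44 also had a minimum at 217909929, and 1 of the 8 minima of BT483 lay close by, at 217912886.

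SUM44 had 1 minimum, at 218036251 (426 kb from the edge), at -0.31 and -0.35. GM06990 stood at -0.01 and -0.04 at this boundary and BT483 at -0.17 and -0.18, so the replicates of the 3 lines did not overlap. Crossing contacts were lower in SUM44 than in GM06990 by a log2 of -0.31 (adjusted p = 0.00687, SE 0.05). The change of -0.16 in BT483 did not pass (adjusted p = 0.0683, SE 0.05). The boundary splits the region into a centromeric and a telomeric part. Pairs with both fragments on the telomeric side stood at 1.14 and 1.13 of expected in SUM44, 1.07 and 1.04 in GM06990, and 0.927 and 1.05 in BT483. Pairs on the centromeric side stood at 0.946 and 0.956 in SUM44, 0.968 and 0.990 in GM06990, and 1.07 and 0.963 in BT483. Pairs across the boundary stood at 0.932 and 0.924 in SUM44, 0.977 and 0.969 in GM06990, and 0.948 and 0.994 in BT483. In SUM44 the telomeric pairs thus stood apart, while the centromeric pairs were close to those across.

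BT483 had 2 minima. The one at 217850118 (240 kb from the edge) was present in both replicates, at -0.40 and -0.38, where GM06990 had -0.22 and -0.25, and SUM44 -0.24 and -0.21. It was lower than in GM06990 by a log2 of -0.15 (adjusted p = 0.0313, SE 0.04). The difference from SUM44 was -0.16 and did not pass (adjusted p = 0.120, SE 0.04). The other, at 218252883 (643 kb from the edge), rested on replicate 1, at -1.10, while replicate 2 was at 0.06. With fragment factors fitted inside the region the minimum at 217850118 was not found, and the one at 218252883 was. Without replicate 1 the latter was gone, and SUM44 was at 0.26 and 0.22 there.

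**Figure D5:**
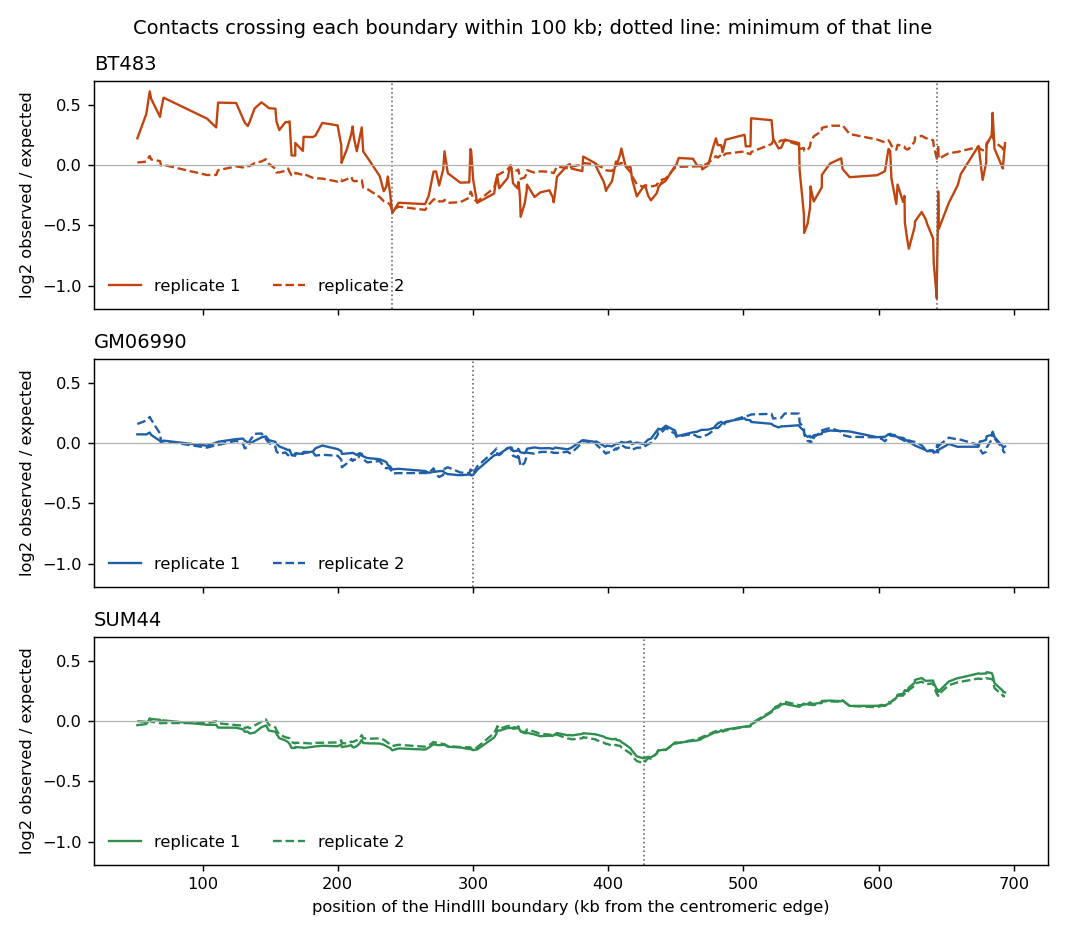
Log2 of observed over expected contacts crossing each HindIII boundary of 2q35 within 100 kb, against the position of the boundary in kb from the centromeric edge; a solid line is replicate 1, a dashed line replicate 2, and dotted vertical lines mark the minima of that line. SUM44 dips to -0.31 and -0.35 at 426 kb and rises to 0.40 and 0.36 near the telomeric end, and the BT483 replicates part company at both ends.

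Across the boundaries of 2q35 the edgeR test called 3 higher and 9 lower for BT483 over GM06990, with 12.1% higher and 10.8% lower over the 878 boundaries of all regions. For SUM44 over GM06990 it called 14 higher and 30 lower, with 14.7% and 12.3% over all regions. In either direction that is 6.0% of the boundaries of 2q35 for BT483, against 22.9% over all regions, and 22.0% for SUM44, against 27.0%, so neither share lay above the background. Each run of neighbouring boundaries shares pairs and is not a count of separate sites. In SUM44 all 30 lower boundaries formed 1 run from 218026371 to 218115047, which spans the windows from 400 to 500 kb. It was lowest at 218052434, where SUM44 had -0.24 in both replicates, GM06990 0.14 and 0.12, and BT483 -0.13 and -0.11 (log2 change in SUM44 -0.37, adjusted p = 0.00279, SE 0.03). In BT483, 8 of the 9 lower boundaries lay inside the same stretch, from 218039471 to 218052434. The lowest, at 218045541, had -0.24 and -0.17 in BT483 against 0.10 and 0.05 in GM06990 (log2 change -0.27, adjusted p = 0.00700, SE 0.04).

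The 14 higher boundaries of SUM44 formed a run at the telomeric end, from 218268362 to 218303369. At 218286776 SUM44 had 0.39 and 0.35, GM06990 0.02 and -0.09, and BT483 -0.12 and 0.12 (log2 change in SUM44 0.41, adjusted p = 0.0166, SE 0.09). The 3 higher boundaries of BT483, at 218283775, 218293484 and 218303369, lay in the same run. None of the 3 was called without any 1 of the GM06990 or SUM44 replicates, or with the replicate block. At 218303369 BT483 had 0.18 and 0.16, GM06990 -0.03 and -0.08, and SUM44 0.24 and 0.20 (log2 change in BT483 0.23, adjusted p = 0.0275, SE 0.05). For BT483 over SUM44, edgeR called 0 boundaries, with 0.0% over all regions in each direction and 58 at an unadjusted p under 0.05. DESeq2 called 57 of the 200 (28.5%), 40 higher and 17 lower. Over all regions it called a smaller share, with 70 higher and 62 lower of 878. These counts, too, moved with single libraries. For BT483 over GM06990 there were 31 and 108 calls without BT483 replicate 1 or 2, 6 without either GM06990 replicate and 7 without either SUM44 replicate. For SUM44 over GM06990 there were 86 and 82 without BT483 replicate 1 or 2 and 1 and 3 without SUM44 replicate 1 or 2, and for BT483 over SUM44 there were 126 without BT483 replicate 2.

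Few single pairs of fragments stood out from the distance background of their line. A pair was called where its summed count was 5 or more and exceeded the negative binomial expectation with an adjusted p no higher than 0.01. This gave 2 pairs of 25651 in BT483, 3 in GM06990 and 0 in SUM44, against 0.0218%, 0.0463% and 0.0218% of the pairs of all 6 regions. Thus SUM44, the deepest line, had none, and its smallest adjusted p was 0.0266. At an unadjusted p under 0.05 there were 1203, 1072 and 1303 pairs. No called pair was shared between lines, and all 5 joined fragments over 100 kb apart. The p of a call compares a pair with other pairs of its line, and pairs are not replicates.

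Both calls in BT483 involved the fragment at 218250629 to 218252882, the one with the most contacts of the region. With the fragment at 218093430 to 218094467, 157.8 kb away, it had 6 and 13 contacts in the BT483 replicates, 6 and 1 in GM06990, and 40 and 57 in SUM44. Summed, that is 10.4 times expected in BT483 (exact Poisson 95% interval 6.25 to 16.2, adjusted p = 0.000707), 4.86 times in SUM44 and 3.65 times in GM06990. The pair was thus above expectation in all lines and highest in BT483. With the fragment at 217955320 to 217959806, 294.2 kb away, it had 1 and 33 contacts in BT483 (6.80 times, 4.71 to 9.51, adjusted p = 0.00263), 6 and 6 in GM06990 (1.98 times) and 64 and 69 in SUM44 (3.36 times). BT483 replicate 1 held only 1 of these contacts, 1.56 times its expectation, and without replicate 2 both calls were lost (adjusted p = 0.0309 for the first and 1.0 for this pair). Without replicate 1 the first pair just missed the threshold, with an adjusted p of 0.0111, and this pair kept its call (adjusted p = 0.000425).

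The 3 calls in GM06990 all had an end between 470 and 484 kb from the edge, in or beside the 475 kb window. The fragment at 218093430 to 218094467 and that at 218295541 to 218301734, in the 675 kb window, had 7 and 10 contacts in GM06990, 0 and 4 in BT483, and 32 and 21 in SUM44. That is 12.1 times expected in GM06990 (7.04 to 19.4, adjusted p = 0.00103), 2.79 times in BT483 and 3.73 times in SUM44. The pair belongs to the block of 475 and 675 kb described above. The fragments at 218083664 to 218087853 and 218214507 to 218217173, 130.1 kb apart, had 12 and 15 contacts in GM06990 (7.36 times, 4.85 to 10.7, adjusted p = 0.00855), 3.92 times expected in BT483 and 2.67 times in SUM44. The fragments at 217828613 to 217831575 and 218079347 to 218083663, 251.4 kb apart, had 7 and 5 contacts in GM06990 (12.9 times, 6.67 to 22.6, adjusted p = 0.00528). In the other lines this last pair was at 2.03 times in BT483, on 1 and 3 contacts, and 1.21 times in SUM44, on 7 and 11. Without GM06990 replicate 2 all 3 calls were lost (adjusted p from 0.0192 to 0.0926). Without replicate 1 only the pair with the 675 kb window kept its call (adjusted p = 0.00626), and the other two had an adjusted p of 0.0109 and 0.246.

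These single calls rest on small counts and on the form of the expectation. Fragments with few trans counts are given a low expectation, and with fragment factors fitted inside the region (balancing) the 5 ratios fell to between 1.88 and 3.72, with adjusted p from 0.126 to 1.0. With distance alone as background they were between 1.92 and 7.12 and none passed, the smallest adjusted p being 0.0866.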

How the data were processed

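Capture Hi-C contacts were analysed inside the 2q35 captured region in BT483, GM06990 and SUM44, with 2 replicates per line. The authors deposited raw counts of ligated read pairs per pair of captured HindIII fragments, with the trans counts of both fragments. Per the submitters' processing notes, CASAVA 1.8 was used and positions are GRCh37 (hg19); the aligner, or whether duplicates were removed, is not given in the sources used here. Contacts per replicate ranged from 103882 to 825023, with a median of 1 to 22 per pair. For SUM44, 2 blank rows were dropped. No count columns were left out.

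Expected counts came from a negative binomial regression for each replicate and region on a cubic spline of log10 distance (4 knots) and the log trans counts of both fragments. The comparisons were made with edgeR 4.0.16 (quasi-likelihood F test, all 6 columns and 6 regions in 1 fit, Benjamini-Hochberg adjustment, threshold 0.05, window pairs with at least 60 counts) and repeated with DESeq2 1.42.0 under R 4.3.3. Tests of window pairs and boundaries used the log expected counts as offset, and tests of distance bins the total inside the region. For distance bins DESeq2 added its own size factors to that total. Minima needed a prominence of 0.3 (log2) and a local minimum within 25 kb in each replicate. Single pairs were tested per line on summed counts. Named were all called pairs, all minima, the 5 highest and 5 lowest log2 changes per comparison whose replicates did not overlap, and the fragments with the 3 highest and 3 lowest totals; other pairs named in the text were chosen after their values were seen. Members and lists were chosen with earlier results of these data known. The edgeR script was tested on simulated data. Python 3.11.15, numpy 2.4.6 and scipy 1.17.1 were used.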

Additional observations from a re-analysis of the deposited data

How the results depend on the processing

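No named change between windows turned direction in any setting. Of the 20 named changes (16 window pairs, some in both comparisons), all 20 lost their call with totals only and with TMM factors, 11 with balancing and 11 without GM06990 replicate 2.

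Calls between windows (57 for BT483 over GM06990, 56 for SUM44 over GM06990, 0 for BT483 over SUM44) were 0, 0 and 0 with totals or TMM factors, 25 and 18 with balancing, and 10 and 20 with totals over 20 kb. With windows of 50 kb they were 27 and 27, of only 135 window pairs tested (20.0% in both). All regions then gave 45 higher and 50 lower of 483 for BT483, and 44 and 46 for SUM44. With windows of 25 kb, calls at 2q35 by DESeq2 numbered 1 for BT483 over SUM44. With 1 replicate left out they ranged from 8 to 103, 5 to 117 and 0 to 64.

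Insulation calls (12, 44 and 0) ranged from 6 to 108, 1 to 86 and 0 to 126 with 1 replicate left out. For BT483 over GM06990 they were 7 with 2q35 fitted alone and 20 with DESeq2, and DESeq2 gave 57 for BT483 over SUM44. The replicate block gave 6 insulation calls for BT483 over GM06990, took away 1 of the 20 named changes and moved no other count of calls by more than 1.5 times. Differences between replicates 1 and 2 were hardly correlated across lines (-0.0927, -0.14 and 0.00926). The ratios compared were already divided by the expectation of each replicate. They cannot settle whether the numbers pair the libraries, which the labels do not say. Calls in the distance bins were 0 in the main test, 2 for BT483 over SUM44 with 2q35 alone, and 0 to 10 in both comparisons of BT483 with 1 replicate left out.

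The slope of GM06990 was -0.460 over 100 to 600 kb. That of SUM44 was -0.531 over 20 to 300 kb, -0.536 divided by trans counts, -0.585 over 20 to 100 kb and -0.484 over 100 to 600 kb. With 1 replicate left out slopes were -0.901 to -0.509 in BT483, -0.575 to -0.495 in GM06990 and -0.566 to -0.552 in SUM44.

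Minima numbered 2, 1 and 1 in BT483, GM06990 and SUM44. They were 9, 3 and 2 with a reach of 50 kb, 8, 2 and 2 with a prominence of 0.15, and 1, 0 and 0 with 0.5. With distance only there were 4 in BT483 and 2 in SUM44. GM06990 had 0 with a reach of 150 kb or balancing. Without 1 replicate BT483 had 1 to 9, and the others 1.

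Called single pairs (2, 3 and 0 in the same order) were 15, 19 and 9 at an adjusted p of 0.05, and 1 and 0 in BT483 and GM06990 at 0.001. A Poisson tail gave 535, 605 and 3474. A count of at least 20 left 1 in BT483 and 1 in GM06990. Balancing gave 2, 1 and 1, and distance only 2, 0 and 1, but 0 of the calls in these 2 settings were calls of the main setting. Fragment lengths gave 9 in GM06990, and pairs over 20 kb gave 4 in BT483. Without 1 replicate there were 4 to 8, 1 to 3 and 0 to 2. Of these, 1 was a call of all replicates without BT483 replicate 1, 1 without GM06990 replicate 1, and 0 in the other settings. The cause of these changes was not tested. The settings balancing (for windows), pairs or totals over 20 kb, the 2 narrower slope ranges and distance bins with 2q35 alone were chosen after seeing the data. The median count per pair was 1 in BT483 replicate 1 and 22 in SUM44 replicate 1. Thinned to the shallowest line, the calls stayed at 2, 3 and 0 (median of 20 draws).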
